A study of Mus musculus with 4 samples.

Results

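The 10 genes Robo1, Robo2, Slit1, Slit2, Dcc, Ntn1, Unc5a, Unc5b, Unc5c and Unc5d, of 32285 genes counted, encode the Slit and Netrin guidance cues and their receptors. They were chosen by gene symbol and are described in progenitors and neurons of the medial ganglionic eminence (MGE), the ventral forebrain zone that gives rise to cortical interneurons and to projection neurons of the ventral forebrain. The MGE of mouse embryos at e14.5, a C57/BL6 ICR mix, had been profiled by single-cell RNA-seq (10x Genomics), in which each captured transcript carries a unique molecular identifier (UMI). There were 2 libraries labelled St18(-/-), called null, in which the transcription factor St18 is lost by design in the whole animal, and 2 labelled wildtype, called WT. Embryos of both genotypes came from heterozygous St18 parents, and the MGE of embryos of the same genotype was pooled, so a library is a pool and not an embryo. Per the study's methods, the null allele came from a conditional allele crossed to the germline driver E2a-Cre, so that the deletion is in all tissues and not in the MGE alone. After filtering (at least 3000 UMIs and at most 10% mitochondrial UMIs) and removal of likely doublets, 17986 cells were classed by marker genes as neurons (10097 cells) or progenitors (7889 cells). Levels are given as CPM (a gene's UMIs over all UMIs of the summed cells of a library, scaled to a total of 1000000), and lists of 4 values run null replicate 1, null replicate 2, WT replicate 1, WT replicate 2.

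Slits are secreted proteins that bind Robo receptors and, in most settings, repel growing axons and migrating neurons. Netrin-1, the product of Ntn1, attracts axons through the receptor Dcc and repels them where a receptor of the Unc5 family acts alone or together with Dcc. In the ventral forebrain, Slit and Robo proteins are known for keeping migrating interneurons out of the striatum and for guiding forebrain axon tracts, and Netrin-1 and Dcc for axon growth across and along the midline and out of the ganglionic eminences.

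The libraries held 70991150 to 92984713 UMIs and 3878 to 6631 cells, with a median of 6186 to 9352 UMIs per cell, and pairs of libraries shared 4 to 11 cell barcodes, each more than the 2.3 to 4.4 that chance gives, with the 2 null libraries highest at 11 against 3.78. The MGE factors Nkx2-1 (278 to 303 CPM in neurons) and Lhx6 (353 to 511 CPM) were present in every library. St18 itself stood at 24.8, 77.2, 44.4 and 58.8 CPM in neurons and 15.9, 47.0, 31.8 and 40.8 CPM in progenitors. The library labelled null replicate 2 was therefore the highest of the 4. By the study's methods, recombination removes inner exons and shifts the reading frame, so that transcripts of the null allele can still be counted. Per the study, embryos were genotyped by PCR at dissection, and antibody staining found no St18 protein signal in St18(-/-) embryos. The study reported lower St18 transcript levels in St18(-/-) neurons by a Wilcoxon rank-sum test. Here the means over libraries in neurons were 51.0 CPM in null and 51.6 CPM in WT. Whether these UMIs come from the deleted part of the gene was not tested, so St18 does not check the labels here, and null and WT below stand for the labels. At least 3 UMIs of Xist were found in 35.3% and 64.7% of the neurons and progenitors of the null libraries and in none of those of the WT libraries, so sex and genotype differ together between these pools. Of markers of other cells, the erythroid list (63.8 to 1218 CPM in progenitors, highest in WT replicate 2) and the pallial neuron list (2.2 to 59.5 CPM in neurons, highest in null replicate 2) varied most between libraries, and their part in the results was not tested.

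The genes run in length from 56.6 kb (Unc5a) to 1097 kb (Dcc) and lie apart, except for the 2 Robo genes. In GENCODE M21 (GRCm38) the coordinates were Robo1 at chr16:72308306-73046095 (+), Robo2 at chr16:73891839-74411825 (-), Slit1 at chr19:41600257-41743665 (-), Slit2 at chr5:47983138-48307733 (+), Ntn1 at chr11:68209364-68400823 (-), Unc5a at chr13:54949411-55006018 (+), Unc5b at chr10:60762593-60831581 (-), Unc5c at chr3:141465216-141834924 (+) and Unc5d at chr8:28646717-29219636 (-). Robo1 and Robo2 are neighbours on chromosome 16, on opposite strands and 846 kb apart, measured between the ends at which their transcripts finish. Their starts lie farther apart.

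RefSeq promoters (GRCm38.p6, 32851 in all) were matched for 6 of the 10 genes, and the 250 bases before the start are shown for 3 of them, 5′ to 3′ on the strand of the gene. The 2 Robo promoters are shown because the levels of these neighbours varied together across cell clusters, and that of Slit2 because it encodes a ligand of both receptors and had the opposite pattern. Capitals mark CAGCTG, an E-box motif.
Robo1, chr16:72662899-72663148: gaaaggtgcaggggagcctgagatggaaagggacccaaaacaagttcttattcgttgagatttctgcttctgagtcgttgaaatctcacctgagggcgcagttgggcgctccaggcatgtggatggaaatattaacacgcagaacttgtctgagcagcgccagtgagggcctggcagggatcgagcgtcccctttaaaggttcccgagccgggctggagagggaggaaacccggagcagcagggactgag
Robo2, chr16:74411826-74412075: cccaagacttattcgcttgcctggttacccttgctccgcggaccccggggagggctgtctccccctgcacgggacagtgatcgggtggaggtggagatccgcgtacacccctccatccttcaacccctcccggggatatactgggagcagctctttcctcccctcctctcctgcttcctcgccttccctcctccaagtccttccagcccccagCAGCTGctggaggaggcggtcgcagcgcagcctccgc
Slit2, chr5:47982905-47983154: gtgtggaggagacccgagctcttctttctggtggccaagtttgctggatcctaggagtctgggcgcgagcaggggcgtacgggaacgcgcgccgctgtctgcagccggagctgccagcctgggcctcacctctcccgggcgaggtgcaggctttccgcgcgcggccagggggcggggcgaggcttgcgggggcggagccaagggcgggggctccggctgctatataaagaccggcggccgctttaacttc
The Robo2 window, whose end meets the annotated start of the gene, held CAGCTG once, and at least 1 copy was in 13% of all promoters. RefSeq held 3 promoters of Robo2. The other two lie outside the annotated gene, at chr16:75092771-75093020 and chr16:75447294-75447543 (-), and held no CAGCTG. The Robo1 window, which belongs to a start within the annotated gene, and the Slit2 window held none. Neither TGGGAA, the core of the Rbpj motif (either strand, 21.6% of promoters), nor TAATTA, a homeodomain motif (4.84%), was found in the 3 windows shown, and TGGGAA was found once in the last of the Robo2 promoters not shown. The Slit2 window had 25 CpG and 69.6% GC, the Robo2 window 14 and 65.6%, and the Robo1 window 11 and 56.0%, with a median of 52.4% GC over all promoters.

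Summed over each class, the receptors were higher in neurons and the ligands higher in progenitors. All 10 genes had the same direction in all 4 libraries, as had 82% of all genes. Of the 10 genes, 7 receptors were lower and 3 ligands higher in progenitors at an adjusted p under 0.05 (quasi-likelihood test in edgeR, Benjamini-Hochberg over all genes, library as block), where 80% of all 14333 genes tested passed, 39.5% higher and 40.5% lower. A call alone therefore sets no gene apart here. At least 2-fold lower in progenitors in all 4 libraries (log2 of CPM + 1) were Robo1, Robo2, Unc5c and Unc5d, 4 of the 10, against 8.01% of all genes, and at least 2-fold higher was Slit1, 1 of the 10, against 8.67%.

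Robo2, of the 10 genes the one with the largest difference between the classes, measured 233, 254, 212 and 193 CPM in neurons and 37.7, 49.2, 33.4 and 36.3 CPM in progenitors. The classes did not overlap, and the log2 difference (progenitors minus neurons) was -2.46 (SE 0.04), adjusted p = 2.22e-20 by edgeR. Robo1 measured 139, 172, 124 and 132 CPM in neurons and 38.7, 52, 33.1 and 33.5 CPM in progenitors, a difference of -1.79 (SE 0.04), adjusted p = 3.43e-19 by edgeR. Dcc, the attractive netrin receptor, was nearer in level between the classes. Neurons held 159, 176, 139 and 190.3 CPM and progenitors 73.2, 91.5, 58.9 and 77.5 CPM, again without overlap, and the difference was -1.08 (SE 0.04), adjusted p = 1.81e-15 by edgeR.

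Of the 4 Unc5 receptors, Unc5d differed most between classes. It measured 16.7, 21.8, 17.5 and 17.7 CPM in neurons and 3.2, 4.91, 3.21 and 3.35 CPM in progenitors, a log2 difference of -2.27 (SE 0.09) with adjusted p = 1.92e-15 by edgeR. Unc5c measured 6.17, 6.8, 4.48 and 6.09 CPM in neurons and 1.17, 2.38, 1.45 and 1.94 CPM in progenitors, a difference of -1.76 (SE 0.16), adjusted p = 3.01e-09 by edgeR. Unc5a and Unc5b were sparse, with at most 3.13 and 3.02 CPM in any library and class. Their differences were -0.95 (SE 0.18) and -1.29 (SE 0.23), with adjusted p = 8.98e-05 and 4.51e-05 by edgeR, and in both genes every library had the higher level in neurons.

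The ligands went the other way. Slit1 measured 40.6, 43.4, 30.4 and 33.6 CPM in progenitors and 10.1, 13.8, 8.25 and 10.2 CPM in neurons, a difference of 1.87 (SE 0.07), adjusted p = 2.11e-15 by edgeR. Slit2 measured 21.9, 24.7, 18.1 and 19.98 CPM in progenitors and 10.2, 12, 8.53 and 9.22 CPM in neurons, a difference of 1.14 (SE 0.07), adjusted p = 2.83e-12 by edgeR. For both Slits the lowest progenitor value lay above the highest neuron value. Ntn1 measured 21.4, 25, 14.46 and 14.8 CPM in progenitors and 8.23, 8.74, 6.54 and 8.75 CPM in neurons, a difference of 1.31 (SE 0.09), adjusted p = 2.2e-11 by edgeR. The per-library log2 ratios of Ntn1 (of CPM + 1) spread from 0.69 in WT replicate 2 to 1.42 in null replicate 2, more than those of either Slit.

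**Figure D1:**
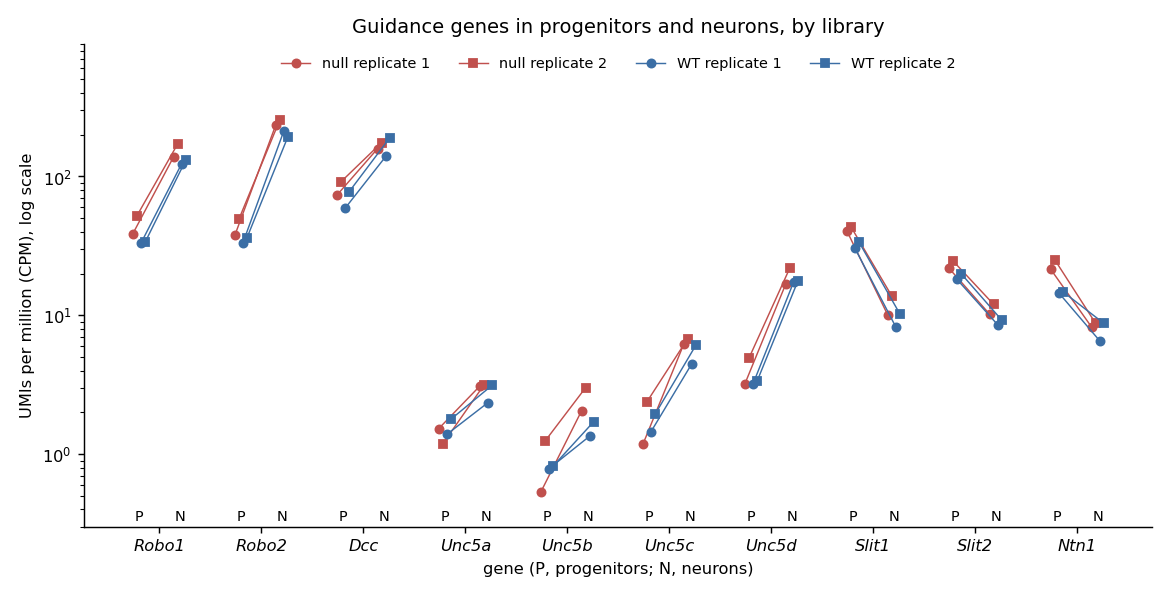
CPM (log axis) of the 10 genes in the summed progenitors (P) and neurons (N) of each library, a line joining the classes of 1 library, null in red and WT in blue. The lines of the 7 receptors climb from P to N and those of Slit1, Slit2 and Ntn1 descend, in all 4 libraries.

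Cells were clustered without these 10 genes and without 45 further genes of the pathway. From marker lists, 5 groups with at least 50 cells in every library were named: ventricular zone radial glia-like and basal progenitor-like progenitors, and cortical interneuron precursor-like, Lhx8 and Zic-like and LGE striatal-type-like neurons. These held 6547 of the 17986 cells. A cluster of 61 pallial neuron-like cells also met its list but was too small to be compared, and the other clusters stayed unnamed. Levels between groups are a description without a test, because the groups were made from the same cells, and groups are said to overlap where their ranges over the 4 libraries do.

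The summed level of Dcc separated the 3 neuron groups, but not every cluster in them. It measured 401, 493, 382 and 381 CPM in Lhx8 and Zic-like neurons (mean 414 ± 53 CPM, SD, n = 4), where Lhx8 and the Zic genes mark ventral neurons that include cholinergic and pallidal types. In LGE striatal-type-like neurons, marked by Ebf1, Foxp2 and Isl1, it measured 206, 310.2, 239 and 252 CPM, and in cortical interneuron precursor-like neurons, marked by Maf, Mef2c and Erbb4, 34.2, 50.1, 38 and 40.8 CPM. The 3 ranges over libraries did not overlap, and within a library Dcc was 10.2 ± 1.03-fold (SD, n = 4) higher in the first group and 6.17 ± 0.112-fold higher in the second than in the interneuron precursor-like cells. Taken by cluster, the first 2 groups overlapped. The LGE striatal-type-like level came from cluster 13 at 478 ± 77.1 CPM and cluster 5 at 171 ± 25.7 CPM, and the Lhx8 and Zic-like clusters 12, 16 and 14 held 486 ± 74.1 CPM, 388 ± 80.9 CPM and 344 ± 71.2 CPM. All 5 lay above the interneuron precursor-like clusters, of which cluster 1 was highest at 66.9 ± 14.1 CPM. The interneuron precursor-like cells, at 40.8 ± 6.78 CPM, overlapped both the basal progenitor-like cells at 51.5 ± 15.6 CPM and the radial glia-like cells, lowest at 26.9 ± 6.63 CPM. Progenitors outside the named groups, which include the clusters with markers of another class ahead, held 98.9 ± 14.7 CPM of Dcc. They also held 55.1 ± 9.27 CPM of Robo2 and 44.7 ± 9.62 CPM of Robo1, and the class levels of progenitors above include them.

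The Robo genes were less divided among neurons. Robo2 stood at 416, 415, 312 and 324 CPM in Lhx8 and Zic-like neurons, 322, 315, 288 and 213 CPM in LGE striatal-type-like neurons and 261, 308, 243 and 239.8 CPM in interneuron precursor-like neurons, and each group overlapped the next. By cluster the means ran from 247 ± 15.9 CPM to 492 ± 94.2 CPM, 208 ± 36.2 CPM to 312 ± 53.3 CPM and 196 ± 12.9 CPM to 342 ± 21.8 CPM in these groups. In basal progenitor-like cells it was at 13.2 ± 1.46 CPM and in radial glia-like cells at 9.29 ± 1.82 CPM, without overlap, so that the span from highest to lowest mean was 39.5-fold. Robo1 was lower in interneuron precursor-like neurons, at 92.3, 134, 85.4 and 95.7 CPM, than in LGE striatal-type-like neurons at 233, 268, 191 and 217 CPM and Lhx8 and Zic-like neurons at 249, 331, 212 and 198 CPM. The first of these ranges lay apart from the other two, which overlapped, but by cluster the split was not complete, with 150.3 ± 24.3 CPM in interneuron precursor-like cluster 1 and 154 ± 17.2 CPM in Lhx8 and Zic-like cluster 16. The 2 progenitor groups overlapped for Robo1, at 29.8 ± 7.98 CPM in radial glia-like and 28.3 ± 5.39 CPM in basal progenitor-like cells.

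Slit1 was highest in basal progenitor-like cells, marked by Gadd45g and Btg2, at 74, 99.99, 68.6 and 64.5 CPM. Radial glia-like cells held 21.3, 28.4, 16.5 and 17.4 CPM, and the ratio within a library was 3.71 ± 0.307-fold (SD, n = 4). The 2 ranges did not overlap, and all 3 neuron groups lay below both, from 7.87 ± 1.4 CPM in interneuron precursor-like cells to 4.57 ± 2.6 CPM in Lhx8 and Zic-like cells. Slit2 had the opposite order of means between the progenitor groups. It measured 35.8, 34.4, 26.8 and 29.7 CPM in radial glia-like cells and 16.1, 28.4, 18 and 21.5 CPM in basal progenitor-like cells, and these ranges overlapped. The neuron groups held 7.09 ± 1.43 CPM, 6.61 ± 1.31 CPM and 5.81 ± 2.31 CPM of Slit2 (LGE striatal-type-like, interneuron precursor-like, Lhx8 and Zic-like) and overlapped one another.

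Ntn1 was highest in radial glia-like cells and had a lower, second level in some neurons. Radial glia-like cells measured 57.5, 77.8, 38.9 and 43.6 CPM and basal progenitor-like cells 6.9, 12.3, 4.85 and 3.44 CPM, a ratio within a library of 8.85 ± 2.7-fold (SD, n = 4). Lhx8 and Zic-like neurons held 29.9, 34.4, 25.4 and 25.5 CPM, below every radial glia-like value and above every other group. LGE striatal-type-like neurons followed at 15.4 ± 4.73 CPM and interneuron precursor-like neurons were lowest at 2.51 ± 0.942 CPM, and each of these overlapped the basal progenitor-like cells. The Lhx8 and Zic-like level of Ntn1 came from clusters 14 and 16, at 42.6 ± 6.75 CPM and 34.2 ± 11.4 CPM. Cluster 12, with 340 of the 773 cells and the highest mean of Dcc, held 13 ± 6.56 CPM of Ntn1 and overlapped LGE striatal-type-like clusters 13 and 5 at 18.4 ± 5.07 CPM and 14.3 ± 5.88 CPM. The unnamed neuron cluster 2, with 871 cells and Shh, Lhx8 and Zic1 among its leading genes, held 5.78 ± 1.35 CPM of Ntn1 and 279 ± 42.5 CPM of Dcc.

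Among the Unc5 receptors, Unc5a was highest in LGE striatal-type-like neurons, at 7.09, 6.57, 6.12 and 9.46 CPM, apart from all other groups, the next being basal progenitor-like cells at 2.69 ± 1.68 CPM. Radial glia-like cells followed at 2.06 ± 0.22 CPM. Lhx8 and Zic-like and interneuron precursor-like neurons had lower means than both progenitor groups, 0.949 ± 0.501 CPM and 0.526 ± 0.206 CPM. The higher level of Unc5a in the summed neurons was thus not seen in these neuron groups. Unc5d ranged from 16 ± 4.71 CPM in interneuron precursor-like neurons through 9.98 ± 4.67 CPM and 8.52 ± 2.24 CPM in LGE striatal-type-like and Lhx8 and Zic-like neurons, each overlapping the next, to 2.62 ± 0.585 CPM in radial glia-like and 1.26 ± 0.949 CPM in basal progenitor-like cells, which overlapped each other but none of the neurons. Single clusters carried part of these levels, as with Lhx8 and Zic-like cluster 16 at 23.1 ± 4.68 CPM against 4.29 ± 2.69 CPM and 4.17 ± 4.11 CPM in clusters 14 and 12. The summed level of Unc5c did not separate the neuron groups, which held 7.21 ± 2.61 CPM, 6.18 ± 0.4 CPM and 5.3 ± 0.902 CPM (Lhx8 and Zic-like, interneuron precursor-like, LGE striatal-type-like), and all 3 lay above the progenitor groups. These sums hide unlike clusters. Lhx8 and Zic-like cluster 16 held 25 ± 7.9 CPM against 2.82 ± 3.91 CPM in cluster 12 and 1.36 ± 1.7 CPM in cluster 14, which overlapped the progenitors. Interneuron precursor-like cluster 11 held 16.9 ± 3.89 CPM against 3.04 ± 2.14 CPM and 2.97 ± 2.1 CPM in clusters 0 and 1, and LGE striatal-type-like cluster 13 11.7 ± 7.15 CPM against 3.25 ± 1.78 CPM in cluster 5. Unc5b was at or near 0 in all 5 groups, with at most 5 UMIs in a group and library.

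**Figure D2:**
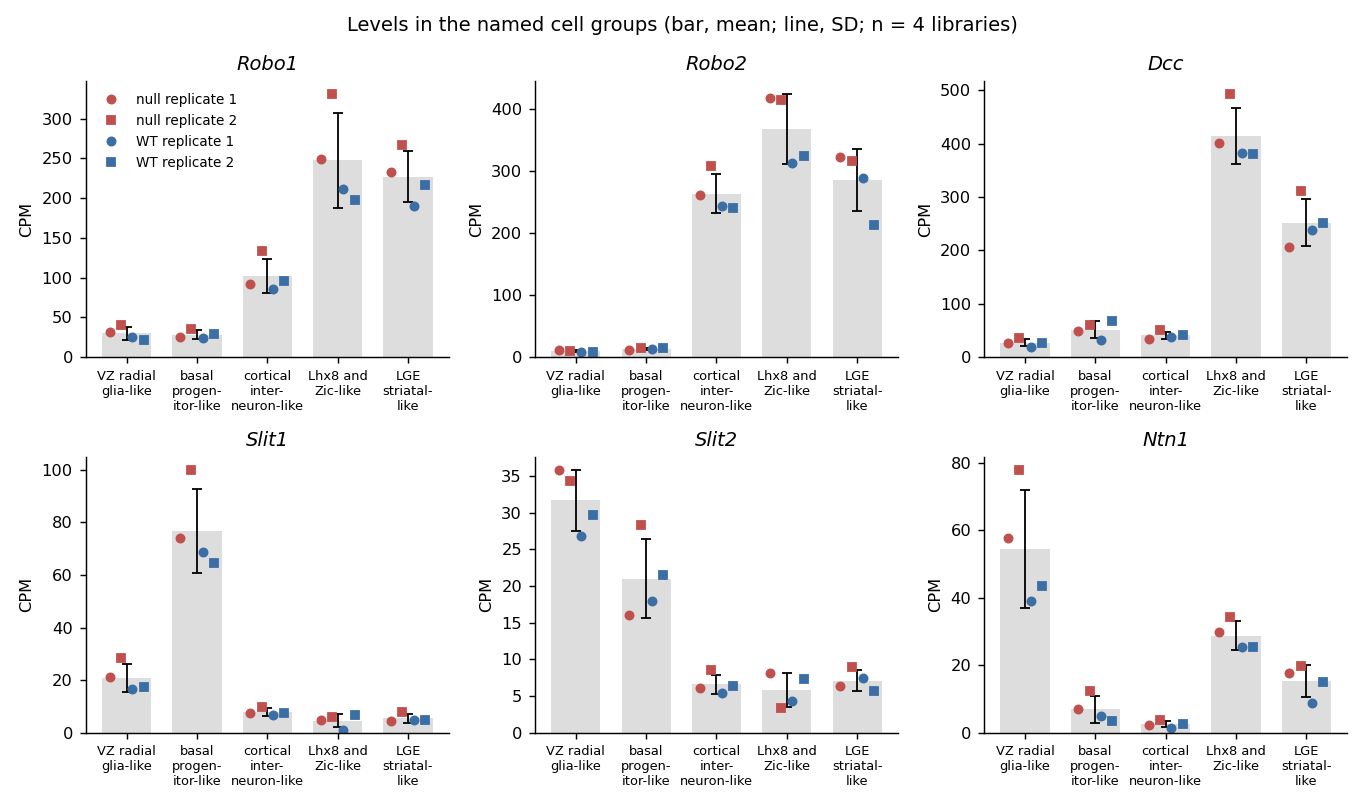
CPM of 6 genes in the 5 named groups (VZ, ventricular zone). Grey bars are means of 4 libraries, lines the SD, and points the libraries, null in red and WT in blue. Dcc and Robo1 are high in the Lhx8 and Zic-like and LGE striatal-type-like neurons, Slit1 peaks in basal progenitor-like cells and Slit2 and Ntn1 in radial glia-like cells.

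Most clusters had no name, and some of the highest levels lay there. Over 33 clusters with at least 20 cells in every library (15 of progenitors, 18 of neurons), Unc5d was highest in neuron cluster 8, led by Peg10, Crim1 and Pnoc, at 86.8 ± 22.9 CPM (SD, n = 4), and next in neuron cluster 17, led by Six3 and Tshz2, at 42.2 ± 11.2 CPM. Cluster 8 also had the highest Slit2 of the neuron clusters, 26.8 ± 5.28 CPM, and the highest Unc5a, 13.8 ± 3.89 CPM. Its Robo2, 71.3 ± 6.54 CPM, was the third lowest of the neuron clusters. Unc5c was highest in neuron cluster 16, an Lhx8 and Zic-like cluster led by the acetylcholine transporter gene Slc18a3.

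Within the Lhx8 and Zic-like group the clusters differed. Cluster 12 had the highest mean of Dcc of the 33, though cluster 13 was within its spread, and cluster 14 the highest mean of Robo2, of Robo1, 289 ± 56.2 CPM, and, among neuron clusters, of Ntn1. Slit1 in neurons peaked in clusters 6 and 9, at 34.7 ± 11.2 CPM and 32.9 ± 8.45 CPM. Leading genes of cluster 6 include Dll3, Vim and Ccnd2, genes also of progenitors and newborn neurons, and those of cluster 9 Htr3a and Nr2f2, genes of caudal ganglionic eminence interneurons. Among progenitors, cluster 8, radial glia-like and led by the astroglial genes Bcan, Rlbp1 and Aldh1l1, had the highest Slit2 and Ntn1, at 68.5 ± 14.8 CPM and 73.5 ± 25.7 CPM. The next progenitor clusters held 28.4 ± 12.1 CPM of Slit2 and 48.3 ± 13.4 CPM of Ntn1.

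**Figure D3:**
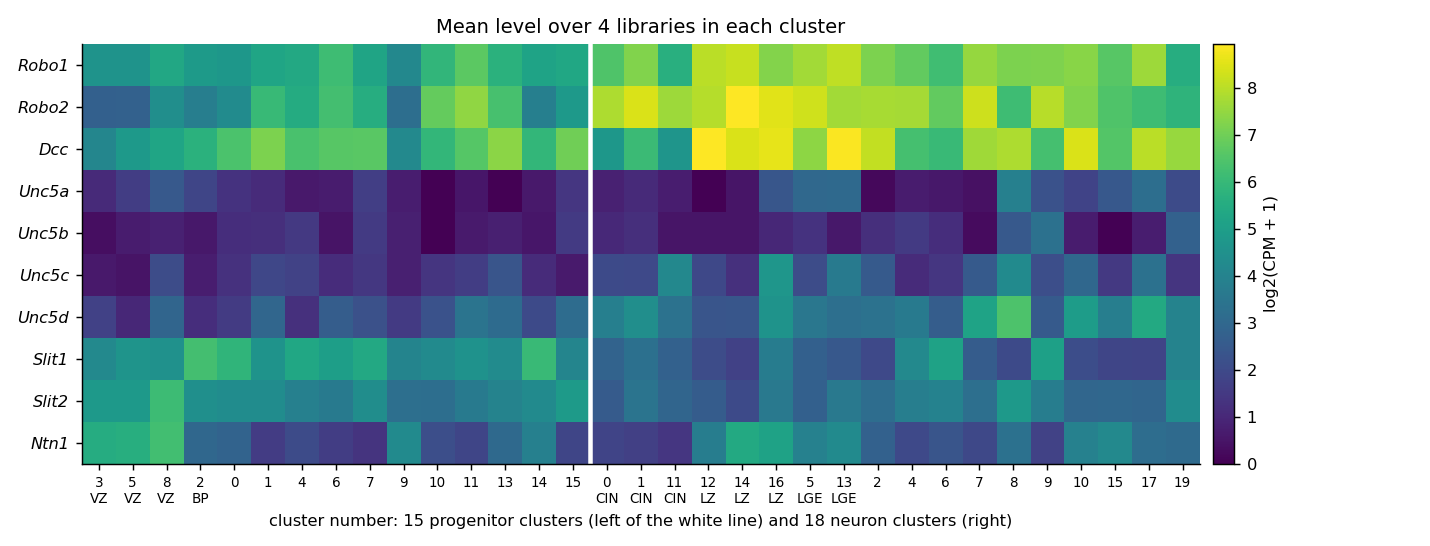
Mean level over 4 libraries, as log2(CPM + 1), of the 10 genes (rows) in 15 progenitor and 18 neuron clusters (columns; VZ, radial glia-like; BP, basal progenitor-like; CIN, interneuron precursor-like; LZ, Lhx8 and Zic-like; LGE, LGE striatal-type-like). Robo1, Robo2 and Dcc are mostly brighter to the right of the white line, but Dcc is less bright in the CIN clusters than in the LZ and LGE clusters. Ntn1 is bright in the 3 VZ clusters drawn and in neuron clusters 14 and 16.

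Robo1 and Robo2 varied together across the 33 clusters (Pearson's r = 0.86 of log2(CPM + 1)), and each was low where the Slits were high. For Robo1, r was -0.72 with Slit1 and -0.62 with Slit2. For Robo2 it was -0.56 with Slit1 and -0.68 with Slit2. The 2 Slits had r = 0.61, Robo1 and Dcc 0.73, and Unc5c and Unc5d 0.69. These are descriptions over clusters that share the same 4 libraries, and the split of progenitors and neurons enters every one of them.

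The ratio of Robo2 to Robo1 UMIs nevertheless differed between the clusters by more than the spread of the libraries. In neuron cluster 11, interneuron precursor-like and led by Thbs1, Cxcr4 and Id3, it was 3.3, 4.75, 3.89 and 4.23, and in clusters 0 and 1 of the same group 3.04, 2.18, 2.85 and 2.55 and 2.56, 2.12, 2.47 and 2.07. The 3 interneuron precursor-like clusters and cluster 16 (Lhx8 and Zic-like) had the 4 highest mean ratios of all 33. In neuron clusters 17 and 8 the ratio was 0.364, 0.457, 0.405 and 0.204 and 0.617, 0.425, 0.455 and 0.536, below every value of the interneuron precursor-like clusters. Radial glia-like progenitor clusters 3, 5 and 8 were also low, with 0.279, 0.304, 0.293 and 0.114, 0.388, 0.123, 0.152 and 0.45 and 0.471, 0.467, 0.5 and 0.667. A ratio of UMIs of 2 genes depends on how well each transcript is captured, so only its difference between clusters is read here.

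**Figure D4:**
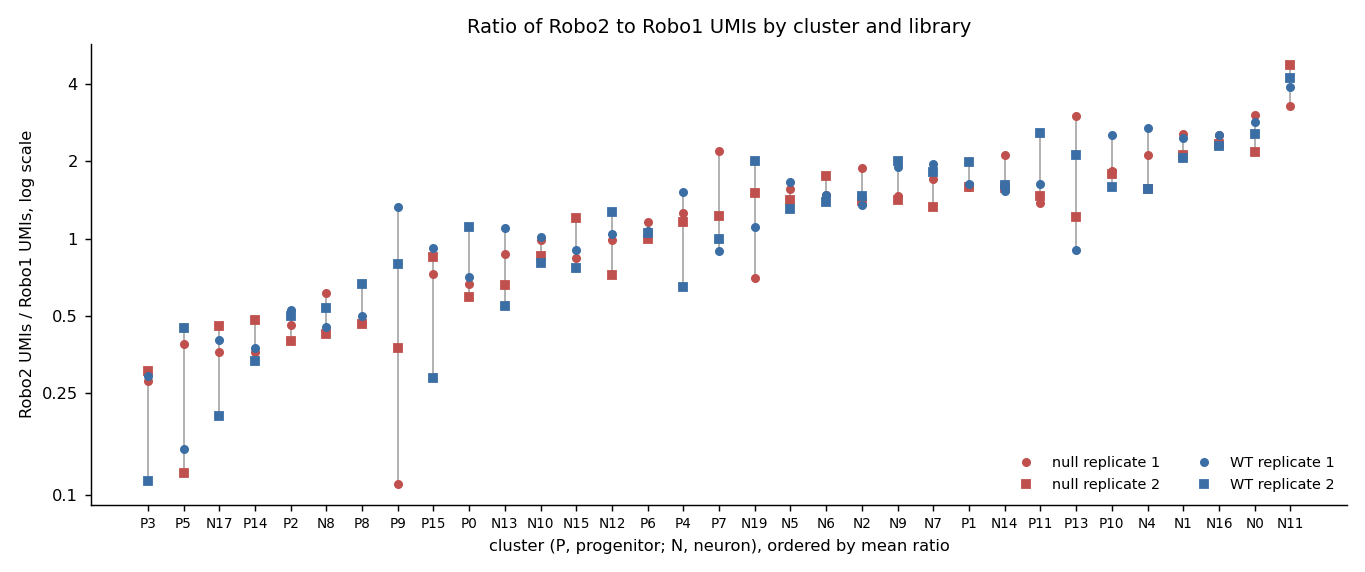
Robo2 UMIs divided by Robo1 UMIs (log axis) in each of 33 clusters, ordered by the mean, with 1 point per library (null red, WT blue) and a line over their range. Interneuron precursor-like clusters N11, N0 and N1 lie at the right with all values at 2.07 or more, and N17 and N8 at the left with none above 0.617.

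The share of cells with at least 1 UMI gave the same order of the classes and groups named here after each cell was thinned to 3000 UMIs. Robo2 was found in 39.4% (95% interval 38.4 to 40.3%) of 10097 neurons and 10.2% (95% interval 9.52 to 10.9%) of 7889 progenitors, exact binomial intervals that cover counting error only. Dcc was found in 64.6% (95% interval 61.1 to 67.9%) of the Lhx8 and Zic-like cells and 9.08% (95% interval 7.94 to 10.3%) of the interneuron precursor-like cells. Slit1 was found in 21.5% (95% interval 18.5 to 24.8%) of basal progenitor-like cells and 3.04% (95% interval 2.71 to 3.39%) of neurons, and Ntn1 in 14.3% (95% interval 12.7 to 15.9%) of radial glia-like cells and 1.85% (95% interval 1.6 to 2.13%) of neurons. Cells that should lack these genes give one measure of free RNA. Of 153 erythroid-like cells, 1.31% had Robo2, 2.61% Dcc, 1.31% Slit1 and none Ntn1, which allows a share of up to 1.96%. Before thinning, the erythroid-like cells had a median of 11387 UMIs and neurons one of 5984. Few of the erythroid-like cells held a UMI of these genes, so the shares alone do not tell the low levels of Slit1 and Ntn1 in neurons from free RNA. Over all their 1775212 UMIs, the erythroid-like cells held 2.25 CPM of Slit1 (95% Poisson interval 0.614 to 5.77) and no UMI of Ntn1, and neurons held at least 8.25 CPM of Slit1 and 6.54 CPM of Ntn1 in every library. Barcodes with under 100 UMIs, which hold free RNA, gave another and higher measure, at 61.7, 64 and 66.1 CPM of Robo1, Robo2 and Dcc and 20.7 and 16.6 CPM of Slit1 and Ntn1 (means of 4 libraries), with Slit2 from 5.55 to 16.8 CPM, and with 3.67, 2.1, 2.79 and 10.3 CPM of Unc5a, Unc5b, Unc5c and Unc5d. These means were above those of the neurons for Slit1, Slit2, Ntn1, Unc5a and Unc5b, and above those of the progenitors for Robo1, Robo2 and all 4 Unc5 genes. The part of free RNA in the class levels was not tested.

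By the same correlation over 33 clusters, the genes most like Robo1 among those reaching 10 CPM in a cluster were Pgap1, Atxn7l1 and Cxadr (r = 0.93, 0.93 and 0.93), and Robo2 was most like Kif21b and Afap1 (r = 0.94 and 0.94). For Dcc they were Klhdc10, Ccser1 and Edil3 (r = 0.86, 0.86 and 0.83). Slit1 was most like Rffl, Ss18 and Gadd45g (r = 0.89, 0.88 and 0.87), the last a marker of basal progenitors, and Ntn1 most like 1110015O18Rik, Svip and Cfap298 (r = 0.89, 0.87 and 0.87). For Slit2 they were Appl2, Wipi1 and Tbc1d15 (r = 0.83, 0.83 and 0.83), and for Unc5a Foxp2, Pcdh7 and Id4 (r = 0.84, 0.82 and 0.82). Unc5c was most like Sntg1, Nipal2 and Mapk9 (r = 0.84, 0.82 and 0.81) and Unc5d most like Ndst3, Anks1b and Spock1 (r = 0.86, 0.81 and 0.81). The sparse Unc5b had its closest genes at r = 0.61, 0.59 and 0.59 (Vps50, Htr3a and Nos1).

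The design asks whether these genes differ with the loss of St18. None of the 10 passed the threshold between libraries labelled null and WT in neurons or in progenitors (edgeR quasi-likelihood test, adjusted p under 0.05), where 0.531% of 13570 genes passed in neurons (14 higher and 58 lower in null) and 0.0293% of 13629 in progenitors (2 higher and 2 lower). Scaling by library totals alone, in place of TMM, moved the median log2 change of all genes from 0 to 0.15 in neurons and 0.19 in progenitors and the calls to 266 higher and 79 lower in neurons and 33 and 14 in progenitors, so null and WT are compared below in TMM-scaled CPM. DESeq2 called 0 of the 3 members to which it gave an adjusted p in neurons and 0 of 4 in progenitors, where it called 6.71% and 6.39% of all genes with one. At an unadjusted p under 0.05 in edgeR were 0 of the 10 in neurons and 1 in progenitors, against 17.5% and 17.1% of all genes. Without the library labelled null replicate 2, in which St18 UMIs were highest, edgeR called 0 of the 10 in neurons and 1, Ntn1, in progenitors, with 2.78% and 10.8% of all genes called. Without null replicate 1 it called Robo1 in neurons, at 0.25 (adjusted p = 0.041), and Ntn1 and Robo1 in progenitors, with 19.7% and 30.2% of all genes called.

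Ntn1 in progenitors was the gene of this set nearest to a call. It measured 21, 22.3, 15.5 and 15.8 TMM-scaled CPM, both libraries labelled null above both labelled WT, and the log2 difference was 0.47 (SE 0.11) with adjusted p = 0.135 in the edgeR fit. In neurons it measured 8.07, 8.05, 6.97 and 9.11 TMM-scaled CPM, with overlap, a difference of 0.01 (SE 0.18). The difference between the 2 classes did not pass either, with an interaction of 0.42 (SE 0.16) and adjusted p = 0.429 by edgeR, where 0.426% of all genes passed (8 with the null effect higher in progenitors and 53 lower, or 16 and 49 with RLE size factors and 18 and 31 with library totals). Of the 10 genes, 0 had an interaction past the threshold in edgeR and 0 of the 4 given an adjusted p by DESeq2, and 2, Ntn1 and Dcc, were at an unadjusted p under 0.05 in edgeR against 7.86% of all genes. Without null replicate 1 or without null replicate 2, the progenitor difference in edgeR was 0.52 (adjusted p = 0.0022) or 0.43 (adjusted p = 0.0189), and in cells with a Y-linked and at most 1 Xist UMI it was 0.40 (adjusted p = 0.24). With the same number of cells of each cluster drawn from every library, it was 0.25 (adjusted p = 0.474), the lowest of the 15 alternatives. With library totals alone it was 0.67 (adjusted p = 0.0579), the highest.

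In progenitors, 4 of the 10 genes (Ntn1, Slit1, Slit2 and Robo1) had both null libraries above both WT libraries in TMM-scaled CPM and none had both below, where 26.4% of all genes lay above and 26.3% below. Slit1 measured 39.9, 38.7, 32.6 and 35.9, a log2 difference of 0.20 (SE 0.11), adjusted p = 0.386 by edgeR. Robo1 measured 38, 46.4, 35.5 and 35.8, a difference of 0.24 (SE 0.13), adjusted p = 0.367 by edgeR. Robo1 in null replicate 1 and in the WT libraries lay close together, and null replicate 2 stood higher. Without null replicate 1 the edgeR value was 0.39 (adjusted p = 0.0042), and without null replicate 2 0.09 (adjusted p = 0.483). In neurons Robo2, Slit2 and Unc5b lay above in both null libraries and none of the 10 below, with 25.8% and 25.5% of all genes doing so. Unc5b had the largest difference there, 0.57 (SE 0.31), on 19 to 56 UMIs per library, adjusted p = 0.366 by edgeR, and it ran from 0.33 to 0.80 with 1 library left out.

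Dcc in neurons measured 156, 162, 149 and 198 TMM-scaled CPM, with both null values between the WT values, and its log2 difference was -0.13 (SE 0.14). Robo2 measured 229, 234, 226 and 201, a difference of 0.12 (SE 0.12), and Robo1 136, 158, 132 and 137, a difference of 0.13 (SE 0.12). For these 3 receptors the differences were about the size of their SE. The remaining genes had log2 differences between -0.38 (Unc5a) and 0.12 (Robo2) in progenitors, and between -0.02 (Unc5d) and 0.22 (Slit1) in neurons. With 1 library left out, Unc5a in progenitors ran from -0.65 to -0.17 and Slit1 in neurons from 0.036 to 0.41.

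**Figure D5:**
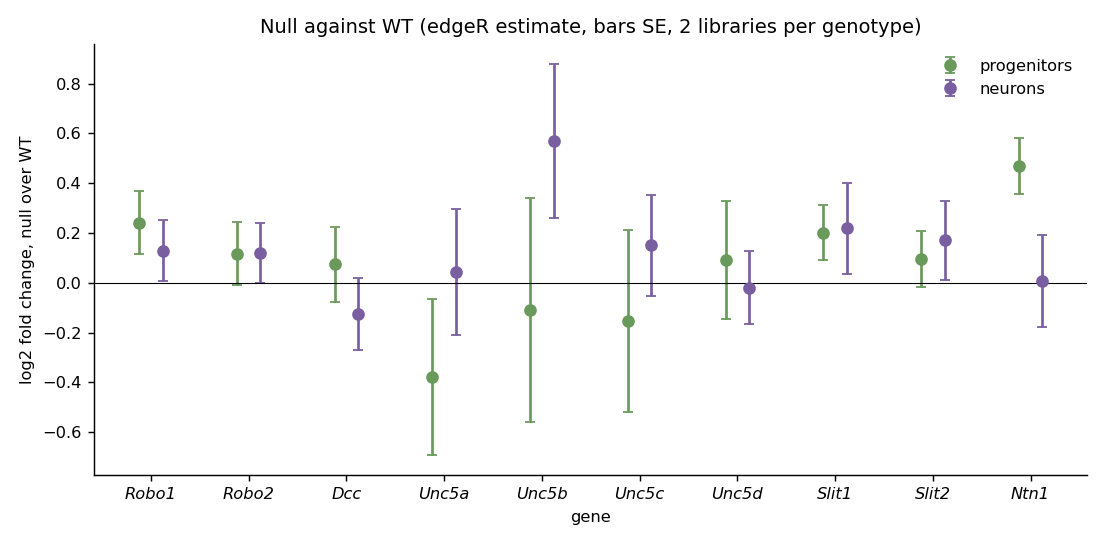
Log2 fold change of null over WT (points, edgeR estimates; lines, SE; 2 libraries per genotype) of the 10 genes in progenitors (green) and neurons (purple). Ntn1 in progenitors lies farthest from 0 for its SE, at 0.47, and the widest lines are those of the sparse Unc5b and Unc5c.

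Within the 5 named groups fewer of the 10 genes passed the filter on low counts, 8 in radial glia-like and in interneuron precursor-like, 7 in LGE striatal-type-like and 6 in basal progenitor-like and in Lhx8 and Zic-like cells. None of those tested passed the threshold (edgeR, adjusted over all genes of the group, DESeq2 not run), where 0.022% of genes passed in basal progenitor-like, 0.0615% in LGE striatal-type-like, 0.073% in interneuron precursor-like, 1.54% in Lhx8 and Zic-like and 2.7% in radial glia-like cells. At an unadjusted p under 0.05 were 2 of 8 in radial glia-like, 1 of 6 in Lhx8 and Zic-like, 1 of 8 in interneuron precursor-like and 0 in the other 2 groups, against 20.7, 15.8 and 11.1% of all genes in the first 3 and 10.4% (basal progenitor-like) and 7.88% (LGE striatal-type-like) in the last. In radial glia-like cells Ntn1 measured 56, 69.5, 42.2 and 46.8 TMM-scaled CPM, a log2 difference of 0.50 (SE 0.15) with adjusted p = 0.0901, and Robo1 30.7, 35.9, 27.7 and 23.5, a difference of 0.36 (SE 0.16) with adjusted p = 0.23, both by edgeR. In Lhx8 and Zic-like neurons Robo1 measured 248, 318, 223 and 206, a difference of 0.40 (SE 0.15) with adjusted p = 0.192, and Robo2 414, 399, 329 and 338, a difference of 0.28 (SE 0.14) with adjusted p = 0.324, both by edgeR. Unc5d in interneuron precursor-like neurons measured 13.4, 12, 15.6 and 23.9, a log2 difference of -0.59 (SE 0.25), adjusted p = 0.398 by edgeR. Without null replicate 1, where the null side is 1 library assumed to vary like the others, 5 values passed in edgeR, where 26.9, 13.4 and 15.6% of all genes were called in radial glia-like, Lhx8 and Zic-like and interneuron precursor-like cells. These were Slit1, Ntn1, at 0.66 (adjusted p = 1.52e-05 by edgeR), and Robo1, at 0.48 (adjusted p = 0.0222 by edgeR), in radial glia-like cells, and Robo1 in interneuron precursor-like and Lhx8 and Zic-like cells, at 0.56 (adjusted p = 0.000116 by edgeR) in the latter. Without null replicate 2 none of these passed, and the last was 0.21 (adjusted p = 0.405) by edgeR. Over the 4 fits that each left out 1 library, the log2 difference ran from 0.34 to 0.66 for Ntn1 and 0.24 to 0.49 for Robo1 in radial glia-like cells and from 0.21 to 0.56 for Robo1 in Lhx8 and Zic-like cells. That of Unc5d in interneuron precursor-like neurons ran from -0.92 to -0.31, nearest to 0 without WT replicate 2, and was -0.98 in the clusters on unrounded components. The share of neurons in the interneuron precursor-like group was 25.8, 32.5, 19.7 and 13.1% in the 4 libraries, and that of the Lhx8 and Zic-like group 6.12, 6.09, 7.13 and 12%, and null replicate 2 held 497 of the 894 cells of interneuron precursor-like cluster 1. The unnamed neuron cluster 3, whose leading genes include Npy, Rnd2 and the Y-linked Eif2s3y, held 98, 18, 403 and 308 cells in the 4 libraries, so the sums over neurons draw on the clusters in different proportions in null and WT. The part of this make-up in the class values was tested only by drawing the same number of cells of each cluster from every library. That number was the count in the library with the fewest, which left 1227 neurons and 1209 progenitors per library.

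Other genes of the pathway, from a list of 45 (11 ligands, 4 receptors and 30 signal transducers and regulators), were mostly higher in neurons as well. Of the 43 tested, 31 were lower and 9 higher in progenitors (edgeR, adjusted p under 0.05), where 40.5% and 39.5% of all genes were, with a median log2 difference of -0.54 against -0.02 over all genes. The listed ligands did not share the direction of Slit1, Slit2 and Ntn1. Of the 10 tested, 7 were lower and 3 higher in progenitors, with a median of -0.77. The 3 listed receptors tested were all lower. The receptors Dscam and Robo3 were lower in progenitors by edgeR, with -3.15 (SE 0.15, adjusted p = 6.85e-14) and -2.34 (SE 0.37, adjusted p = 7.52e-06), as were the Slit-Robo GTPase activator Srgap1 with -2.18 (SE 0.05, adjusted p = 4.67e-19) and the kinase gene Pak1 with -1.31 (SE 0.04, adjusted p = 2.17e-17). Robo3 stood at only 1.19 ± 0.275 CPM (SD, n = 4) in neurons. The regulators Ablim1 and Trim67 and the ligands Rgmb, Draxin and Flrt1 were also among the 10 largest differences, all lower in progenitors. Dock1, a Rac activator that acts downstream of Dcc, was the exception among those 10, with 34.6 ± 6.12 CPM in progenitors and 4.63 ± 0.893 CPM in neurons and an edgeR difference of 2.94 (SE 0.08, adjusted p = 3.55e-18). Between null and WT, 0 of 43 passed in neurons and 0 of 41 in progenitors, with 4 and 9 at an unadjusted p under 0.05 beside the 17.5% and 17.1% of all genes given above. DESeq2 called 2 of the 28 given an adjusted p in neurons and 0 of 26 in progenitors, against its 6.71% and 6.39% of all genes. Without null replicate 1, edgeR called 11 of 43 and 16 of 42 of the list, against 19.7% and 30.2%.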

How the data were processed

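Per the labels, MGE of e14.5 embryos was pooled by genotype and 10x libraries were made from 2 null and 2 WT pools. The authors aligned and counted the reads with Cell Ranger (5.0.1 with GRCm38 in the submitters' processing notes, 4 in the file headers), and deposited raw UMI counts of all barcodes, neither normalized nor filtered. The labels number no replicates, so numbers follow accession order and pair no null library with a WT library. The p-values of null against WT measure the spread between 2 pools a side. Those between classes measure the spread of differences within the 4 libraries. The members and gene lists were chosen with earlier results of these data known.

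Barcodes with at least 3000 UMIs, 200 genes and at most 10% mitochondrial UMIs were kept (19031). Scrublet (scanpy 1.11.5) called 0.121 to 0.244% of cells doublets at its own threshold, which was not used; the highest scores were left out at 0.8% per 1000 cells, leaving 18267. Cells were clustered in Seurat 5.3.0 (R 4.3.3) on 2000 variable genes less the 10 members and 45 pathway genes, with the difference of S and G2M scores regressed out, 49 principal components and Louvain resolution 1.4. Components were rounded to 3 decimals so that the clusters could be repeated exactly. This was settled after several clusterings had been made and compared, and clusters moved with such small numerical changes. Clusters were classed as neurons or progenitors by the larger score over 7 neuron and 10 progenitor markers, and each class was clustered again. A named group needed 3 markers detected in 25% of cells at a log2 fold of 1, with no other list equal or ahead. Of the 23 neuron and 19 progenitor clusters, 4 and 6 had markers of another class ahead among their 10 leading genes (16.8 to 24.6% of neurons and 19.5 to 25% of progenitors in a library). They stayed in their class, unnamed, and were left out in an alternative.

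UMI counts were summed per library and class or group and tested in edgeR 4.0.16 (glmQLFTest, TMM, filterByExpr, two-sided, Benjamini-Hochberg over all genes tested), where all 10 members passed the filter in both classes and 6 to 8 in the named groups. DESeq2 1.42.0, other scalings and filters, other cell thresholds and leaving out each library were alternatives, and the fits were tested on simulated data. Of 200 genes changed there in a first and a second set, null against WT recovered 81 and 100 in neurons and 86 and 100 in progenitors. The interaction recovered 48 and 99, and progenitors against neurons 100 and 100, with 3 to 11 false calls. A true difference can therefore be missed between null and WT and in the interaction. For shares, each cell was thinned to 3000 UMIs. All members, St18, the largest changes of the pathway list (at most 10) and the 3 genes most like each member were named, except 1 gene that is not reported here. Of the gene identifiers, 99.6% were found in GENCODE M21, from which positions come; promoters are from RefSeq (GRCm38.p6).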

Additional observations from a re-analysis of the deposited data

Results flagged for a closer look

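Unc5b, sparse in neurons and progenitors, had a clear signal in a cell class outside the comparisons. The 96 microglia-like cells held 89 Unc5b UMIs, with UMIs in all 4 libraries, a pooled level of 67.8 CPM (95% Poisson interval 54.5 to 83.5, counting error only). Barcodes with under 100 UMIs, which stand for free RNA, had an upper limit of 3.30 CPM for Unc5b, and none of the other 9 genes stood above its own such limit in microglia-like cells. The microglia markers summed to 1.28 to 3.2 CPM in neurons of the 4 libraries. The level differed between libraries, with a mean of 77.4 ± 47.8 CPM (SD, n = 4).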

How the results depend on the processing

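Null libraries could not be paired with WT libraries because the labels carry no replicate numbers. The comparison of classes was paired within libraries. There the fit with no replicate block, which drops the library term, called 10 of 10 members as did the fit with it. All 10 members kept their direction and side of the threshold between progenitors and neurons in all 15 alternatives, and the counts of members called between null and WT were 0 under every other setting than those named here. Leaving out 1 library gave 0 to 1 members called in neurons, 0 to 2 in progenitors and 0 to 5 over the named groups, the highest each time without null replicate 1, and no filter on low counts gave 1 in progenitors, Ntn1 (adjusted p = 0.0203, edgeR; 0.00220 to 0.685 over 15 alternatives). Over all genes, the calls between null and WT went from 72 to between 1 (cells with a Y-linked and at most 1 Xist UMI) and 2699 (without null replicate 1) in neurons and from 4 to between 0 and 4181, the same settings, in progenitors, with 318 and 325 by DESeq2 and 570 and 898 without a filter. They went from 61 to between 6 and 153 for the interaction, and within the groups from 2, 8, 6, 141 and 320 (basal progenitor-like, interneuron precursor-like, LGE striatal-type-like, Lhx8 and Zic-like, radial glia-like) up to 1175, 1663, 1028, 1251 and 3266 without null replicate 1, with 12 without WT replicate 2 and 43 without WT replicate 1 the lowest of the last 2 groups.

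Small log2 differences between null and WT changed sign, none of them past the threshold in either fit, and the cause was not tested. In neurons with library totals alone, Dcc was 0.021 and Unc5d 0.13. With the cells of each cluster matched in number between libraries, Slit2 was -0.029, Dcc 0.058 and Unc5d 0.010. In cells with a Y-linked and at most 1 Xist UMI, Slit2 was -0.042, Ntn1 -0.20, Unc5a -0.24 and Unc5d 0.23, and at 5000 UMIs Ntn1 was -0.13, Unc5a -0.079, Unc5c -0.053 and Unc5d 0.099. In neurons Ntn1 was -0.011 with a UMI threshold per library, -0.017 with doublets kept and -0.036 with clusters on unrounded components. Leaving out 1 library, neurons had Dcc from -0.32 to 0.093, Ntn1 from -0.18 to 0.21, Unc5a from -0.14 to 0.24, Unc5c from -0.045 to 0.36 and Unc5d from -0.17 to 0.14. In progenitors with library totals alone, Unc5b was 0.089 and Unc5c 0.047. With the cells of each cluster matched in number between libraries, Robo1 was -0.021 and Robo2 -0.064. Without the clusters led by other markers, Robo2 was -0.20, Unc5c 0.10 and Unc5d -0.17. In cells with a Y-linked and at most 1 Xist UMI, Dcc was -0.043. Leaving out 1 library, progenitors had Robo2 from -0.010 to 0.25, Dcc from -0.11 to 0.28, Unc5b from -0.70 to 0.37, Unc5c from -0.64 to 0.25 and Unc5d from -0.16 to 0.33. Differences that kept their sign then ran, in neurons, Robo1 from 0.023 to 0.25, Robo2 from 0.033 to 0.20, Slit1 from 0.036 to 0.41, Slit2 from 0.10 to 0.26 and Unc5b from 0.33 to 0.80 and, in progenitors, Robo1 from 0.090 to 0.39, Slit1 from 0.13 to 0.27, Slit2 from 0.026 to 0.16, Ntn1 from 0.43 to 0.52 and Unc5a from -0.65 to -0.17.

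The unthinned shares were 56.1% for Robo2 in neurons and 22.9% in progenitors, 84.0% for Dcc in Lhx8 and Zic-like and 16.1% in interneuron precursor-like cells, 47.4% for Slit1 in basal progenitor-like cells and 6.03% in neurons, and 38.4% for Ntn1 in radial glia-like cells and 4.54% in neurons. Clusters on unrounded components, an alternative chosen after seeing the data, shared 69.3% of the interneuron precursor-like cells, 85.0% of the LGE striatal-type-like cells and 93.4 to 97.5% of the other groups. In that clustering the interneuron precursor-like cells had 79.6 CPM of Robo1, 5.29 of Slit2, 28.6 of Dcc, 0.316 of Unc5a and 8.13 of Unc5c, and no other level of a member in a named group moved by more than its SD over libraries under the 2 alternatives tried. The named groups, and what is said within them, therefore rest on the clustering chosen. Depth limits Unc5a, Unc5b and Unc5c most, with few UMIs per library and group.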

Other observations

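The 61 cells of a pallial neuron-like cluster, led by Neurod6 and Neurod2, held 265 ± 91.8 CPM of Dcc, 32.7 ± 19.2 CPM of Unc5b and 23.3 ± 14.6 CPM of Unc5a (SD, n = 4 libraries), from 220, 17 and 11 UMIs in all. They had 1 UMI of Ntn1. These cells, whose markers belong to the cortex and not the MGE, numbered 4 to 21 in a library. The 32 oligodendrocyte precursor-like cells held 27 UMIs of Dcc, a pooled 72.7 CPM (95% Poisson interval 47.9 to 106, counting error only), and no UMI of Unc5a or Unc5b. The upper limit of Dcc in barcodes under 100 UMIs was 71.2 CPM, above the lower end of that interval.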
